A study of Mus musculus with 6 samples.

Results

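The genes described here, 10 classical targets of serum response factor (SRF) in the smooth muscle contractile apparatus, were followed in sorted leukemia cells. They are Myh11, Cnn1, Tagln, Myl9, Mylk, Smtn, Tpm2, Cald1, Des and Lmod1, which were picked by symbol, and all 10 were found among the 23284 genes of the files. Levels of Myh11, Cnn1 and Tagln in these libraries were known when the list was drawn up, so how the 10 genes are spread over the libraries is given as a description, without a test. C1498 cells, a mouse acute myeloid leukemia (AML) line made to express EGFP and grown from a single clone, were injected intravenously into wild-type C57BL/6J mice, female and 8 to 10 weeks old unless stated otherwise. Cytarabine is a nucleoside analog that blocks DNA synthesis, and CD49b is the integrin alpha 2 chain. On day 21 after injection, GFP-positive, CD49b-positive cells were sorted out of bone marrow, from 3 mice given cytarabine and 3 control mice. The controls are called both PBS-treated and untreated in the sample records, and the cytarabine schedule is not given for these 6 mice in particular. Each mouse gave 1 RNA-Seq library, and the libraries are named cytarabine 1 to 3 and control 1 to 3 after their source names, since the sample titles number them differently.

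In smooth muscle, SRF binds DNA together with myocardin or the myocardin-related factors MRTFA and MRTFB, which enter the nucleus when actin filaments form. The genes it switches on encode the filaments that shorten the cell, the kinase that starts contraction and the proteins that hold the filaments in place. Blood cells and leukemia cells move with related but different proteins, such as the non-muscle myosin heavy chain of Myh9, although platelets also contain some of the 10, such as Myl9.

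Libraries differed in ways that the groups do not explain. The first principal component of all tested genes held 63.1% of the variance and set cytarabine 2, cytarabine 3 and control 1 apart from the other 3 libraries. Transcripts of colon epithelium were high in the same 3 libraries, and transcripts of heart muscle were high in control 1, cytarabine 3 and control 2. Leukocyte genes such as Cd3g, Coro1a and Ptprc were abundant in every library, with a summed level of 1614 to 2235 FPKM over 7 genes (FPKM is a read count divided by transcript length and library size). Of genes that mark blood lineages, Cd3g of the T cell receptor complex was at 449 to 652 FPKM, while the myeloid genes Mpo, Itgam and Csf1r were at 2.33 to 71.1, 0.933 to 4.76 and 0.912 to 5.81 FPKM, although the line is labelled as myeloid. Cytarabine 1 alone held the high Mpo value, against 2.33 to 12.3 FPKM elsewhere. The myeloid gene Elane was alike, at 81.7 FPKM there and 2.81 to 9.94 FPKM elsewhere, and Cebpa was at 0.462 to 2.18 FPKM. Totals of 11520000 to 18720000 reads per library were inferred from the spacing of low values. P-values below set the difference between the groups against the spread between mice within the groups.

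The SRF site is known as the CArG box, a motif of 10 bases that reads the same on both strands, and the promoters were searched for it because all 10 genes are SRF targets. Of the 10 genes, 8 have a promoter in the RefSeq table used here (GRCm38.p6), and Myh11 and Tagln are named only. In the 250 bases before the start, a full CArG box was found for 1 of the 8 genes, Myl9, against 1.62% of 27025 genes. With 1 mismatch allowed, 3 of the 8 had a match (Myl9, Lmod1 and Cald1), against 21.1% of all genes. The Myl9 stretch is chr2:156775214-156775419 on the plus strand and is cut before the first annotated transcript. Capitals mark the full box and, after it, a match with 1 mismatch.
Myl9: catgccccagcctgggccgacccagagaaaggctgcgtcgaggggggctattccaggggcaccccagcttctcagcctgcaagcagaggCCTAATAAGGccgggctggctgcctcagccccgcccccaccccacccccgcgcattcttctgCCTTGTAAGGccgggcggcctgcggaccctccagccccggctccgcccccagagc
The matches of Lmod1 (chr1:135324614-135324643 and chr1:135324639-135324668, plus strand) and Cald1 (chr6:34598291-34598320, plus strand) are shown with 10 bases on each side to set them against the Myl9 box, and capitals mark the match with 1 mismatch.
Lmod1: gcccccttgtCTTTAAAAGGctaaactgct
Lmod1: ctgctctgtaCTAAATTTGGtcacgcagcg
Cald1: acggtttcaaGCTTTTTAGGacttggtttt
These matches are letters in a short window and show neither binding nor its absence, and sites farther from the start or in introns were not searched.

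All 10 genes were high in the same 3 libraries, cytarabine 2, cytarabine 3 and control 1, and low in cytarabine 1, control 2 and control 3. The lowest of the 3 high libraries exceeded the highest of the 3 low libraries by 3.47-fold (Cald1) to 15.3-fold (Lmod1). Because a control library was among the high ones and a cytarabine library among the low ones, the groups overlapped for every member. A larger share of cells of another type and more RNA per cell cannot be told apart in such bulk libraries. Of all 11703 genes tested, 2015 (17.2%) had these 3 libraries above the others, and 878 (7.502%) by more than 2-fold.

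The motor and its switches come first. Myh11 encodes the smooth muscle myosin heavy chain and lies on chromosome 16 from 14194535 to 14291372 (GRCm38). It was at 5.39, 87.7 and 87.4 FPKM in the libraries cytarabine 1 to 3, while control 1 to 3 held 42.7, 1.17 and 0.474 FPKM. Cytarabine 2 and 3 were alike, control 1 stood at 48.7% of cytarabine 2, and cytarabine 1 at 6.15% of it. Myl9, the regulatory light chain that is phosphorylated to start contraction (chromosome 2, 156775420 to 156781658), was at 16.5, 215 and 217 FPKM after cytarabine, with control values of 202, 35.8 and 3.85 FPKM. Here control 1 nearly reached cytarabine 2, and control 2 was above cytarabine 1. Mylk encodes the myosin light chain kinase that phosphorylates Myl9 (chromosome 16, 34745210 to 35002420), and it was at 1.29, 20.1 and 18.8 FPKM after cytarabine against 8.82, 0.529 and 0.0796 FPKM in the controls. Its order over the libraries was that of Myh11.

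Proteins that bind actin filaments and regulate their contact with myosin showed both kinds of order. Cnn1 encodes calponin, which slows the myosin motor (chromosome 9, 22099216 to 22109630), and had 6.33, 84.8 and 93.3 FPKM with cytarabine against 60.0, 3.12 and 0.486 FPKM in the controls. Cald1 encodes caldesmon, another brake on the motor (chromosome 6, 34598500 to 34775473), and had 1.99, 25.7 and 29.1 FPKM against 24.8, 7.14 and 0.361 FPKM. Tpm2, the beta-tropomyosin that lies along the filament (chromosome 4, 43514711 to 43523765), had 7.44, 69.5 and 77.9 FPKM against 92.3, 14.5 and 1.83 FPKM. For Tpm2 the highest library of all was a control, and for Cald1 and Tpm2, unlike Cnn1, control 2 was above cytarabine 1. Tagln encodes transgelin, an actin cross-linker also called SM22 (chromosome 9, 45929619 to 45936058), and had the highest level of the 10 in every library. Its values were 22.3, 284 and 297 FPKM after cytarabine and 206, 41.5 and 4.77 FPKM in the controls. Of the 75-base stretches of Tagln transcripts, 53.3% also occur on the opposite strand in transcripts of Pcsk7 or Gm48529. The library kit keeps the strand, but whether the counting used it is not given in the sources used here. Pcsk7 itself was listed at 11.3 to 14.4 FPKM in the 6 libraries.

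Structural members completed the set. Des encodes desmin, the intermediate filament of smooth, heart and skeletal muscle (chromosome 1, 75360329 to 75368579), and was at 8.03, 93.8 and 132 FPKM after cytarabine, while the controls held 133, 23.8 and 1.69 FPKM. Control 1 and cytarabine 3 were level, and both were above cytarabine 2. Smtn encodes smoothelin, a marker of contractile smooth muscle (chromosome 11, 3517523 to 3540612), with 1.22, 11.7 and 12.6 FPKM against 6.24, 0.797 and 0.435 FPKM. Lmod1 encodes leiomodin, which starts actin filaments in smooth muscle (chromosome 1, 135324807 to 135368065), and was the lowest of the 10 in every library. It was at 0.163, 4.17 and 3.49 FPKM after cytarabine, at 2.49 FPKM in control 1 and at 0.129 FPKM in control 2, and was listed at 0 in control 3, where 3 reads would correspond to 0.0695 FPKM. The values of cytarabine 1 and control 2 stand for about 8 and 6 reads, so their order was not resolved at this depth.

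**Figure D1:**
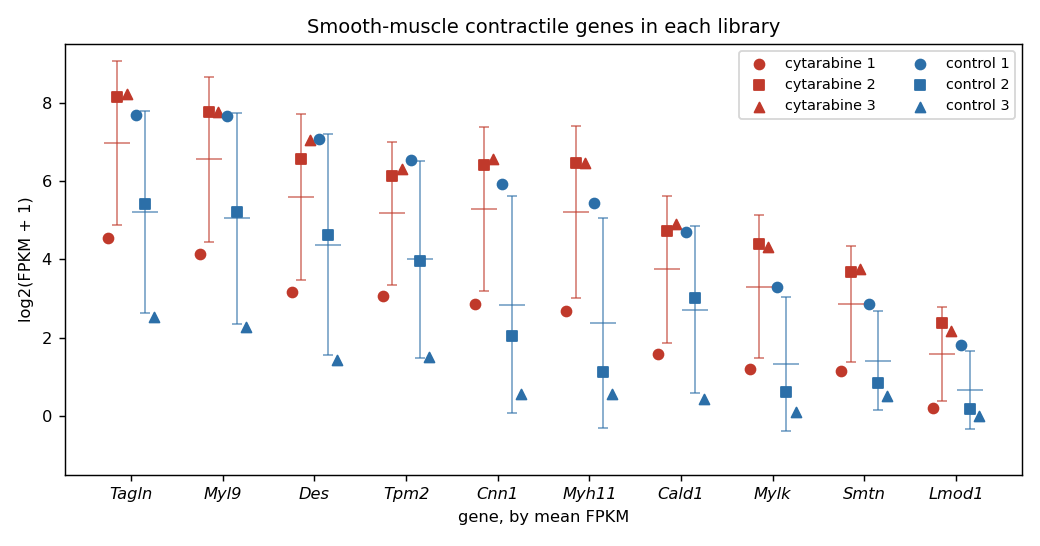
Levels of the 10 smooth-muscle contractile genes as log2(FPKM + 1) on the vertical axis, by gene from the highest to the lowest mean FPKM on the horizontal axis. Each point is 1 library (red, cytarabine; blue, control), and the horizontal dash and bar are the mean and SD of log2(FPKM + 1) over 3 libraries. For every gene 2 red points and 1 blue point lie high and the other 3 points lie low.

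Different orders could be told apart within the set by whether cytarabine 1 or control 2 came next after the 3 high libraries. Cytarabine 1 was above control 2 for Myh11, Cnn1, Mylk and Smtn, and Lmod1 is counted with them by its listed values although its order was not resolved. Control 2 was above cytarabine 1 for Tagln, Myl9, Tpm2, Cald1 and Des, by 1.86-fold (Tagln) to 3.59-fold (Cald1). The same 5 genes stood at 72.4% to 141% of their cytarabine 2 level in control 1, and the other 5 at 43.9% to 70.8%. This division was noticed in the values and was not tested.

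Relative to Myh11 within each library, most of the 9 other genes had similar proportions in cytarabine 2 and cytarabine 3, and Des differed most. Myl9 was 2.45 and 2.48 times Myh11 there, and Tagln was 3.24 and 3.40 times. In control 2 the same ratios were 30.6 and 35.4. Des was 1.07 times Myh11 in cytarabine 2, 1.51 times in cytarabine 3 and 20.3 times in control 2. Mylk moved much less against Myh11, from 0.168 in control 3 to 0.452 in control 2. All of these genes except Smtn had their highest ratio to Myh11 in control 2, and that of Smtn was in control 3.

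**Figure D2:**
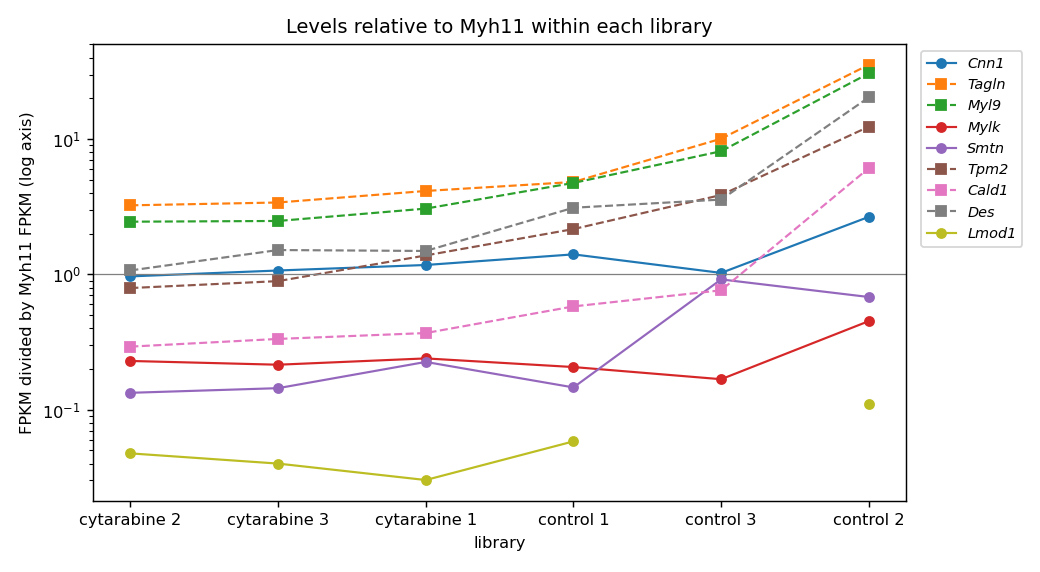
FPKM of 9 genes divided by the FPKM of Myh11 in the same library, on a log axis, with the libraries on the horizontal axis. Circles with solid lines are genes listed with cytarabine 1 above control 2 (not resolved for Lmod1), squares with dashed lines are the other 5, and Lmod1 has no point in control 3, where it was listed at 0. The dashed lines are lowest in cytarabine 2 and highest in control 2, where Tagln reached 35.4 times Myh11.

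Markers of colon epithelium were high in the same 3 libraries as the 10 genes, and the summed level of heart muscle markers was not. The summed level of 10 colon epithelium genes was 296, 3864 and 4244 FPKM in cytarabine 1, 2 and 3 and 1965, 26.8 and 26.1 FPKM in control 1, 2 and 3, led by Zg16, Krt8 and Lgals4, with Fabp2 listed at 0 in 2 libraries. The summed level of 10 heart muscle genes, led by Nppa, Myl2 and Actc1, was 8.07, 25.3 and 793 FPKM with cytarabine and 3030, 627 and 60.7 FPKM in the controls. Its defining genes Myl7 and Ryr2 were listed at 0 in 2 libraries and 1 library. The ratio of the heart sum to the colon sum ran from 0.00655 in cytarabine 2 to 23.4 in control 2. The ratio of Des to Myh11 had its extremes in the same libraries. So had the ratios of Cnn1, Tagln, Myl9, Tpm2 and Cald1 to Myh11, while those of Mylk, Smtn and Lmod1 had not. Myh11 was 3.92% to 4.99% of the colon goblet cell gene Zg16 in 5 libraries and 12.2% in control 2. Other colon genes varied more against Myh11. In control 3, Myh11 was at 0.540% of its cytarabine 2 level, Zg16 at 0.487% of its own, and the 10 colon genes at 0% to 5.72% of theirs. The part of colon and heart transcripts in the levels of the 10 genes was not tested beyond the fits with covariates given with the comparison of groups.

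Markers of other cell types that hold some of these proteins were measured in the same way. For 10 fibroblast and pericyte genes, among them Col1a1, Col1a2 and Dcn, the summed level was 38.9 to 369 FPKM with cytarabine and 68.4 to 706 FPKM in the controls. Dcn, at 6.81, 120 and 93.8 FPKM after cytarabine against 47.9, 28.6 and 3.62 FPKM, had the same 3 libraries on top as the 10 genes. So did Lum, Pdgfra and the pericyte gene Rgs5, the last at 0.475, 10.9 and 9.12 FPKM against 4.59, 1.96 and 0.324 FPKM. The pericyte genes Pdgfrb and Cspg4 did not. Pdgfrb was at 0.102, 0.870 and 1.68 FPKM against 6.09, 1.84 and 0.233 FPKM. Cspg4 was highest in control 1, followed by cytarabine 3 and control 2. Col1a1, Col1a2, Col3a1 and Postn, like Pdgfrb, were highest in control 1 and control 2. The part of these cells in the levels of the 10 genes was not tested. Megakaryocytes and platelets contain Myl9. Their 8 genes summed to 4.29 to 8.38 FPKM, with Treml1 listed at 0 in all 6 libraries and Ppbp, Gp1bb and Gp6 at 0 in 1 or 2. The part of megakaryocytes and platelets in the level of Myl9 was not tested. The endothelial genes, 8 in number, summed to 19.4 to 33.0 FPKM, led by Pecam1, which leukocytes also make, with Cdh5 and Tie1 at 0 in 1 library each. Skeletal muscle genes, led by Acta1, which the heart also makes, summed to 12.5 to 228 FPKM over 10 genes, and Myh4 was listed at 0 in 3 libraries, Myh1 and Tnnt3 in 2, and Tnni2 and Atp2a1 in 1. Of 7 genes of enteric nerve and interstitial cells, Vip and Ano1 were highest in cytarabine 2, at 11.97 and 10.5 FPKM, and lowest in control 2 and control 3. Ret, which had the highest mean of that list, was instead highest in control 2 and control 3. It was at 11.9, 12.2 and 6.82 FPKM after cytarabine against 17.6, 21.0 and 23.5 FPKM. In control 3 it made up 23.5 of the 24.5 FPKM of the list. The summed level of that list was 14.6 to 40.9 FPKM with cytarabine and 23.0 to 29.6 FPKM in the controls, and Sox10 was listed at 0 in 3 libraries and Elavl4 in 2. Of the marker genes, Myl1 was higher (log2 fold change 0.97, adjusted p = 0.277 from limma) and Ret and Itga2 were lower (-0.97 and -0.57, adjusted p = 0.166 and 0.136 from limma) at an unadjusted p under 0.05, and none passed the adjusted threshold. They were 1 of 6 skeletal muscle, 1 of 5 enteric and 1 of 7 leukocyte genes tested, with 0 in every other marker list. Of all genes tested, 17.4% had an unadjusted p under 0.05 (7.60% higher and 9.81% lower).

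**Figure D3:**
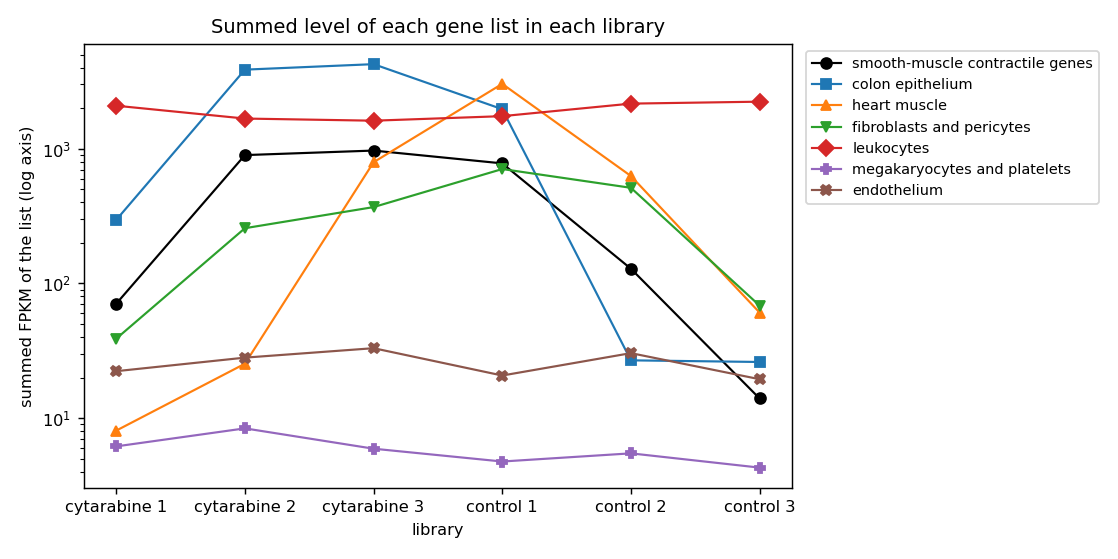
Summed FPKM of 7 gene lists on a log axis against the 6 libraries on the horizontal axis, with the 10 smooth-muscle contractile genes in black. The black line runs from 13.98 FPKM in control 3 to 969 FPKM in cytarabine 3, between the colon and heart lines in control 2, while the leukocyte line stays between 1614 and 2235 FPKM.

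Comparing cytarabine with control asks whether these SRF targets differed after treatment, since the title of the study names the MRTF and SRF pathway. The genes were chosen with levels in these libraries known, so their values from limma are given as a description and support nothing further. No member reached an adjusted p under 0.05 from limma in this comparison. Myh11 averaged 60.2 ± 47.4 FPKM (SD, n = 3) with cytarabine and 14.8 ± 24.2 FPKM (SD, n = 3) in controls, a log2 fold change of 2.83 on the log2(FPKM + 1) scale (standard error 1.65, adjusted p = 0.390 from limma). Tagln averaged 201 ± 155 FPKM and 84.0 ± 107 FPKM (log2 fold change 1.76, standard error 1.59, adjusted p = 0.540 from limma). Des averaged 78.0 ± 63.6 FPKM and 52.7 ± 70.1 FPKM (log2 fold change 1.22, standard error 1.68, adjusted p = 0.687 from limma). For the other 7 genes the log2 fold change lay between 0.93 (Lmod1) and 2.44 (Cnn1), and their adjusted p from limma between 0.400 (Mylk) and 0.675 (Cald1). In all 10 the log2 fold change was above 0, as for 5821 of the 11703 genes tested, and the median log2 fold change was 1.48 against -0.0015 over all genes. None of the 10 had an unadjusted p under 0.05, which 17.4% of all genes had (7.60% higher and 9.81% lower). Groups did not overlap for 0 of the 10, against 23.8% of all genes (10.9% higher and 12.9% lower). By limma's adjusted p, 0% of all genes passed 0.05, although 2038 had an unadjusted p under 0.05.

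The size and direction of this difference changed when single libraries were left out and when a colon score was added to the fit. Without control 1, the median log2 fold change of the 10 genes was 2.69, and Myh11, Cnn1 and Mylk had an unadjusted p of 0.0204, 0.0287 and 0.0431 from limma. Without cytarabine 1 it was 2.57, and Mylk, Smtn and Lmod1 had an unadjusted p of 0.0324, 0.0292 and 0.0483. No adjusted p of the 10 was under 0.05 in either fit. Of all 11703 genes, 993 were higher and 1104 lower at an unadjusted p under 0.05 from limma without control 1. Without cytarabine 1, 2026 were higher and 2049 lower. Without control 3 the median of the 10 genes fell to 0.51, and Tpm2, Cald1 and Des turned to -0.07, -0.11 and -0.25. Without cytarabine 2 and without cytarabine 3 it was 0.97 and 0.95. With the mean log2(FPKM + 1) of the colon epithelium genes as a covariate, all 10 log2 fold changes turned negative, from -0.29 (Smtn) to -1.68 (Des), with a median of -0.85 and adjusted p from 0.428 to 0.783 from limma. With colon and heart scores together, an alternative chosen after the data were seen, the median was 0.01, with 5 genes below 0 and 5 above, in a fit that leaves 2 residual degrees of freedom.

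**Figure D4:**
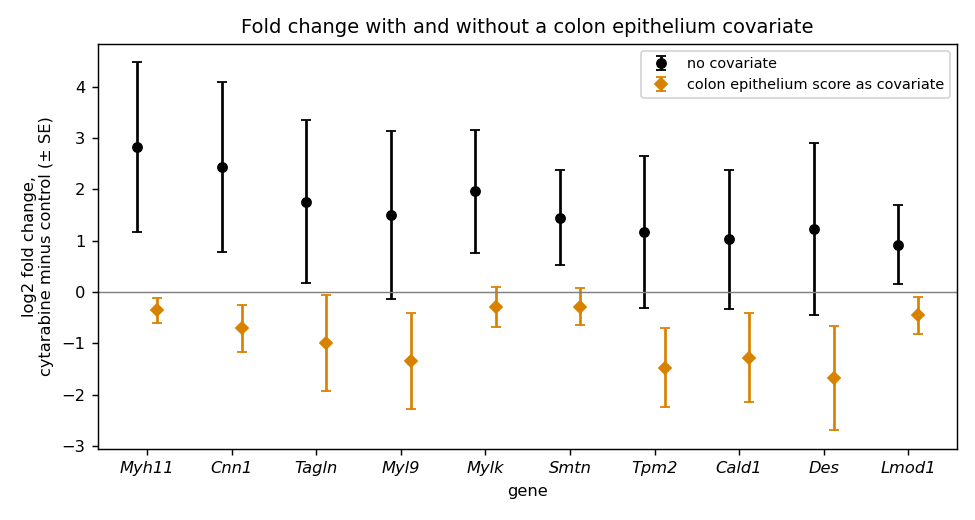
Log2 fold change of each gene, cytarabine minus control on log2(FPKM + 1), with its standard error from limma over 3 against 3 libraries. Black points are the fit without a covariate, all above 0, and orange points the fit with the colon epithelium score as a covariate, all below 0.

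Non-muscle relatives of these proteins, which leukocytes use, were far steadier across the same libraries. Myh9 stayed within 135 to 166 FPKM, Cnn2 within 162 to 230 FPKM, Tpm3 within 274 to 349 FPKM and Vim within 670 to 735 FPKM. The highest library exceeded the lowest by 1.10-fold (Vim) to 1.96-fold (Myl12b) for 10 of the 12 relatives, while the same ratio for 9 of the muscle genes was 29.0 (Smtn) to 253 (Mylk). Myh10 and Cnn3 were the exceptions, with 28.9-fold and 17.0-fold. Myh11 was 58.8% of Myh9 in cytarabine 2 and 0.301% of it in control 3. Tagln was 78.1% of Tagln2 in cytarabine 2 and 1.06% of it in control 3.

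**Figure D5:**
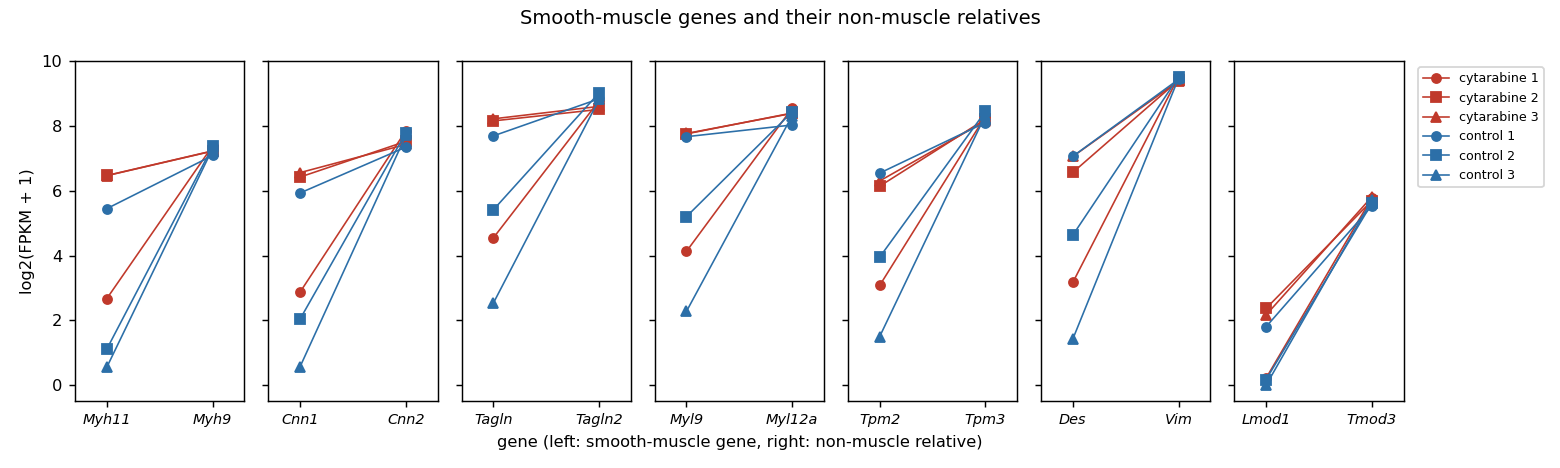
Pairs (7) of a smooth-muscle gene (left of each panel) and a non-muscle relative (right) as log2(FPKM + 1), with 1 line per library (red, cytarabine; blue, control). The left ends are spread out, with 0.474 to 87.7 FPKM for Myh11, and the right ends meet, with 135 to 166 FPKM for Myh9.

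Of the 12 relatives, 1 was higher and 1 lower with cytarabine at an unadjusted p under 0.05, and both had groups without overlap. These shares were near those of all genes (7.60% higher and 9.81% lower, and 10.9% and 12.9% without overlap). Myl12b, a non-muscle regulatory light chain, was at 353, 461 and 436 FPKM after cytarabine against 253, 246 and 235 FPKM (log2 fold change 0.76, standard error 0.11, adjusted p = 0.131 from limma). Tagln2, the leukocyte transgelin, was at 437, 363 and 388 FPKM against 456, 518 and 450 FPKM (log2 fold change -0.26, standard error 0.10, adjusted p = 0.252 from limma). Neither passed the adjusted threshold. The median log2 fold change of the 12 was 0.05.

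Further smooth muscle genes gave the same picture with more variety. Of 20, 19 were tested, none had an unadjusted p under 0.05, 16 had a log2 fold change above 0, and the median log2 fold change was 0.71. Acta2, smooth muscle actin, was at 43.2, 307 and 348 FPKM after cytarabine against 391, 82.7 and 13.2 FPKM, the order of Tpm2. Synm and Pgm5, which link the contractile filaments to the membrane, were 0.918 and 0.577 FPKM in cytarabine 1 and 0.0833 and 0.0827 FPKM in control 2, like Myh11. Tpm1 and Csrp1 also have non-muscle forms and did not fall below 118 and 64.2 FPKM in any library. Synm and Pgm5 were named after their values were seen.

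Regulators of these genes differed in how their levels lay over the libraries. Srf was at 54.1, 39.2 and 38.1 FPKM after cytarabine against 41.8, 45.3 and 49.0 FPKM in controls, and Mkl1, the gene for MRTFA, at 20.5, 17.3 and 16.0 FPKM against 17.6, 23.7 and 25.7 FPKM. Both were lower in cytarabine 2, cytarabine 3 and control 1, where the 10 genes were high, than in any of the other 3 libraries. The summed level of the 7 leukocyte genes was lower in the same libraries, and the cause was not tested. Myocd, the gene for the muscle-restricted partner myocardin, was under 0.45 FPKM in every library and listed at 0 in cytarabine 1 and control 3. It had 0.232, 0.440 and 0.356 FPKM in the 3 libraries with high levels of the 10 genes and 0.0675 FPKM in control 2. Mkl2, the gene for MRTFB, was at 2.63, 3.61 and 4.42 FPKM after cytarabine against 3.04, 2.33 and 2.64 FPKM. Like Myocd, it was highest in cytarabine 2, cytarabine 3 and control 1, but the lowest of these exceeded the highest of the other 3 by only 1.15-fold. None of the 6 tested members of this list (Srf, Mkl1, Mkl2, Elk1, Elk3 and Elk4) had an unadjusted p under 0.05, and their median log2 fold change was -0.10.

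The 10 other genes most like the mean of the set in Pearson's r of log2(FPKM + 1) over the 6 libraries were Rhoc, Gpr137, Pdlim3, Chchd10, Ctnnd1, Gpt, Ypel2, Gnaq, Pfkfb2 and Cttn. Their r lay between 0.995 and 0.999, a description over 3 high and 3 low libraries in which the gap between the 2 sets weighs most. Rhoc, a small GTPase related to RhoA, was at 14.9, 65.7 and 71.3 FPKM after cytarabine against 56.2, 17.8 and 8.05 FPKM. Pdlim3, a muscle Z-disc protein, was at 2.22, 19.4 and 20.7 FPKM against 18.99, 2.41 and 0.315 FPKM.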

How the data were processed

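RNA-Seq libraries (TruSeq stranded mRNA, 75-base single-end reads) were made from sorted leukemia cells of 6 mice. Reads were mapped by the authors against mm10 (TopHat2 2.0.13, Bowtie2 2.2.3, SAMtools 0.1.19). The authors deposited FPKM per gene from Cufflinks 2.2.1, which are scaled for length and library size. Annotation, strand setting and Cufflinks options are not given in the sources used here. Library totals were inferred from whole-read steps of low FPKM of single-transcript genes of GENCODE M21 (GRCm38), with a fragment length of 200 bases. At the inferred totals, 72.1% to 75.8% of low values came out within 0.1 of a whole read, too few for a test on counts. The approximate reads given for a gene use the same totals.

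Groups came from the sample records, and the replicate numbers come from them too. Genes averaging 1 FPKM or more (11703, all 10 members included) were tested on log2(FPKM + 1), which understates changes of low genes, with limma 3.58.1 in R 4.3.3 (lmFit, eBayes with trend, two-sided, Benjamini-Hochberg). The step was tested on simulated data. Members and gene lists were chosen with earlier results of these data known. Named from each further list were the 3 genes with the highest mean and up to 2 in each direction at an unadjusted p under 0.05, together with the non-muscle relatives and the SRF partners. Genes listed at 0, Synm, Pgm5, Pcsk7, Pln and the myeloid genes were named after their values were seen. So were Lum, Pdgfra, Rgs5, Pdgfrb, Cspg4, Col3a1 and Postn. Of the 12 colon and 8 leukocyte genes listed, 10 and 7 were used here. A gene of the enteric list is not reported here. Mrtfa and Mrtfb are listed as Mkl1 and Mkl2.

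Alternatives were another pseudocount, other filters and scalings, eBayes without trend, a replicate block, covariates and leaving out each library. Plots were made in Python 3.11.15 (matplotlib 3.10.9).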

Additional observations from a re-analysis of the deposited data

How the results depend on the processing

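No alternative gave any of the 10 smooth-muscle genes an adjusted p under 0.05 from limma (0 of 10, with 0 also at an unadjusted p in the fit reported), and their median log2 fold change of 1.48 stayed between 1.33 and 1.92 under the other pseudocount, filters, scalings, moderation and the block. It was -0.85 with the colon epithelium score as a covariate and between 0.51 and 2.69 when each replicate in turn was left out. From 0 to 3 of the 10 had an unadjusted p under 0.05 in those 6 fits. With the colon score, the log2 fold change was -0.35 for Myh11, -0.71 for Cnn1, -1.001 for Tagln, -1.35 for Myl9, -0.29 for Mylk, -0.29 for Smtn, -1.47 for Tpm2, -1.28 for Cald1, -1.68 for Des and -0.45 for Lmod1. With colon and heart scores, chosen after the data were seen, it was -0.18 for Myh11, -0.16 for Mylk, -0.068 for Smtn, -0.074 for Tpm2, -0.56 for Lmod1 and 0.030 for Tagln2. Leaving out one replicate at a time, it ranged from -0.074 to 2.45 for Tpm2, from -0.11 to 2.11 for Cald1 and from -0.25 to 2.57 for Des. The median of the other smooth muscle genes was -0.49 and that of SRF and its partners 0.038 with the colon score, and with one replicate left out they ranged from 0.26 to 1.49 and from -0.21 to -0.024. Over all genes, 1 passed an adjusted p of 0.05 with a pseudocount of 0.1, 2 without the trend, and 0 to 5 with one replicate left out. At an unadjusted p under 0.05, 890 were higher and 1148 lower. With the replicate block these were 479 and 515, with both scores 291 and 274, and with one replicate left out 594 to 2026 higher and 585 to 2049 lower. Same-numbered libraries are different mice, and their deviations from the group means correlated at -0.71, -0.25 and -0.59, so the numbers do not pair them. The cause of these changes was not tested. List medians without a test also changed sign by less than 1 SD between libraries, to -0.14 for the other smooth muscle genes with both scores and to -0.012 for the non-muscle relatives without control 1. The other 172 values of single genes kept their direction and their side of the adjusted threshold. Low depth limits Lmod1 and Mylk in control 3, at 0 and about 7 reads.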
